A study of Mus musculus with 4 samples.

Results

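The mitosis genes are a set of 45 genes, of 21367 that could be named on the arrays, whose products condense, align and separate chromosomes and divide the cell. A probe belonged to the set if its RefSeq accession mapped to one of these 45 symbols, which gave 65 probes, and 15 genes had several probes. Values were measured in cultured aortic vascular smooth muscle cells of C57BL/6J mice, on 1-colour Agilent 8x60K arrays. The groups were LAMP-2AKO cells (L2AKO) with LDL, wild-type cells (WT) with LDL, L2AKO control cells and WT control cells, with 1 array each. LDL stands for 150 µg/ml LDL-cholesterol together with bovine lipoprotein lipase at 0.1 U/ml; the labels leave unclear whether control cells had the lipase. All cells had grown to confluence, were at passages 12 to 16 and spent 24 h in medium with 5% LPDS, the lipoprotein-deficient serum. The RNA of an array was a triplicate pooled before hybridisation and the cells of a genotype came from 5 aortas, so each genotype and treatment is 1 pooled sample, with no spread between samples and no p-value.

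A cell that enters mitosis switches on cyclin B and its kinase Cdk1, attaches its chromosomes to a spindle of microtubules, and waits at a checkpoint until every kinetochore is held. The anaphase-promoting complex then marks securin and cyclin B for destruction, the sister chromatids part, and an actomyosin ring divides the cell. Most of these genes are silent in resting cells and are transcribed together late in the cycle, through a DNA element named the cell cycle genes homology region (CHR) and through CCAAT boxes, which bind the MuvB complex with B-MYB or FOXM1 and the factor NF-Y. In the arterial wall smooth muscle cells rarely divide, whereas they proliferate after injury, in atherosclerosis and in culture.

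The promoters are shown for the CHR and CCAAT letters named above, and a link between a match and the genotype difference was not tested. RefSeq promoter windows of GRCm38.p6, each 250 bases before and 50 after an annotated start, were held for 37 of the 45 members. A CHR match, TTTGAA or TTCGAA on either strand, lay in the window of 28 of these 37 members (75.7%), and of 21.7% of all 27025 genes with a window. A CCAAT match on either strand lay in 27 members (73.0%), and in 41.1% of all genes. Both lay in 1 window for 25 members (67.6%), and for 8.61% of all genes. The E2F letters TTTCCCGC, TTTGGCGC, TTTCGCGC or TTTGCCGC were found in 1 member (2.70%), and in 2.61% of all genes. Below are the 250 bases before the start of the 4 members with the largest genotype differences without LDL among those measured on both control arrays and with a CHR match upstream, then of Nusap1, the measured member with the largest difference among those without one. Kif4, known only by a bound, was not ranked. Capitals mark CHR and CCAAT letters, on either strand.
Prc1, chr7:80294226-80294475, plus strand: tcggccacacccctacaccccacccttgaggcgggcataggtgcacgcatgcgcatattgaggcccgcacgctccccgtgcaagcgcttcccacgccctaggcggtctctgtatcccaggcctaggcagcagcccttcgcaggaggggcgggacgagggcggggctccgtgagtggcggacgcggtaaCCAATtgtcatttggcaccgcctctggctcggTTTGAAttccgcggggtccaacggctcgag
Mki67, chr7:135716380-135716629, minus strand: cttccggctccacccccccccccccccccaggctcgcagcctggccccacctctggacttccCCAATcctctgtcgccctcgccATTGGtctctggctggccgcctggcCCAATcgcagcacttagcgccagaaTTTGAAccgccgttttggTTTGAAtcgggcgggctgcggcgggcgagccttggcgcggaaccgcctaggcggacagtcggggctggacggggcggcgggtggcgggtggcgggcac
Espl1, chr15:102296043-102296292, plus strand: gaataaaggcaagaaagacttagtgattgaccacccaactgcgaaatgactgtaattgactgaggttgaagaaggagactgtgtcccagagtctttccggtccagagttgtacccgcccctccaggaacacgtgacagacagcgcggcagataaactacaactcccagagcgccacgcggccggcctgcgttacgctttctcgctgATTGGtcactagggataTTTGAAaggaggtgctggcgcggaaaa
Kif11, chr19:37376132-37376381, plus strand: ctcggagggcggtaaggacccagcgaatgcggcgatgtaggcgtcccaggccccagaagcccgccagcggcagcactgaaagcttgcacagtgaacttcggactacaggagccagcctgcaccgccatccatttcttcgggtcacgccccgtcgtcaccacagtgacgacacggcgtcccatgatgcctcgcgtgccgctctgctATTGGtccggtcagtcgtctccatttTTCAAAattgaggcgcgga
Nusap1, chr2:119618048-119618297, plus strand: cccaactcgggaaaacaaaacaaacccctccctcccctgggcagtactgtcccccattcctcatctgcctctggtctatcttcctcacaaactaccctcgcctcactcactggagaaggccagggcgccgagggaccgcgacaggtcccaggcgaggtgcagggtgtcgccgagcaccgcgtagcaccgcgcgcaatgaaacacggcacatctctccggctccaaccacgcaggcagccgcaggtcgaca

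Prc1 has 2 annotated starts, and the window of the downstream one is shown. In Prc1, Espl1 and Kif11 the CHR match began 30, 27 and 19 bases before the start, with a CCAAT match further upstream that began at 62, 44 and 45 bases. Mki67 held 2 CHR matches, which began 116 and 98 bases before the start, and 3 CCAAT matches. A match is a description of letters, and its absence says only that they are not in this window.

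The WT LDL array and both control arrays lay on 1 slide, and the L2AKO LDL array on another, scanned apart. Probes well above background made up 47.2% to 52.0% of an array and no spot was saturated. On that second slide 7 of 8 spike-in controls fell beyond the values of the first slide's arrays. The spike-ins there stood -1.19 to 0.63 log2 units from those arrays' mean. Within the first slide a spike-in ranged over up to 0.50 log2 units, and WT control read highest for each. In comparisons with L2AKO LDL, the slide cannot be told apart from the group. Levels below are log2 processed signals minus the 75th percentile of the array, so they compare arrays for 1 probe and not 1 gene with another. Repeated spots of a probe on an array gave an SD of 0.08 log2 units for a difference of 2 spots, which is technical spread only. It is a typical value, from a median spot SD of 0.05 over repeated probes. Bub1, the member with 10 spots, had spot SDs of 0.06 to 0.10, so single members can vary more. The targeted gene Lamp2 had 2 probes, at 6.33 in L2AKO control against 6.29 in WT control on the first, and at 2.30 in L2AKO control against 3.68 in WT control on the second. With LDL they read 6.09 in L2AKO against 6.38 in WT, and 2.41 in L2AKO against 3.74 in WT. The labels do not say which probe lies in the deleted part, so neither settles the check.

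Mitosis genes were lower in L2AKO than in WT without LDL almost without exception. Of 45 members, 41 were well above background on both control arrays, and 40 of these 41 had L2AKO values at least 2-fold lower, where 8.21% of all 12593 genes measured were at least 2-fold lower. None was at least 2-fold higher, against 7.56% of all genes. At 1.5-fold the same 40 were lower, against 16.6% of all genes, and none was higher, against 15.2%. The members' median difference was -2.64 log2 units, 6.25-fold lower, beside -0.01 for all genes. The 100 lowest differences of all genes held 14 of the 41 members (34.1%), and the lowest 200 held 26 (63.4%). Of all 45 members, 41 were well above background on the L2AKO control array and 42 on the WT control array. In bulk RNA, fewer dividing cells and less RNA per dividing cell cannot be told apart.

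**Figure D1:**
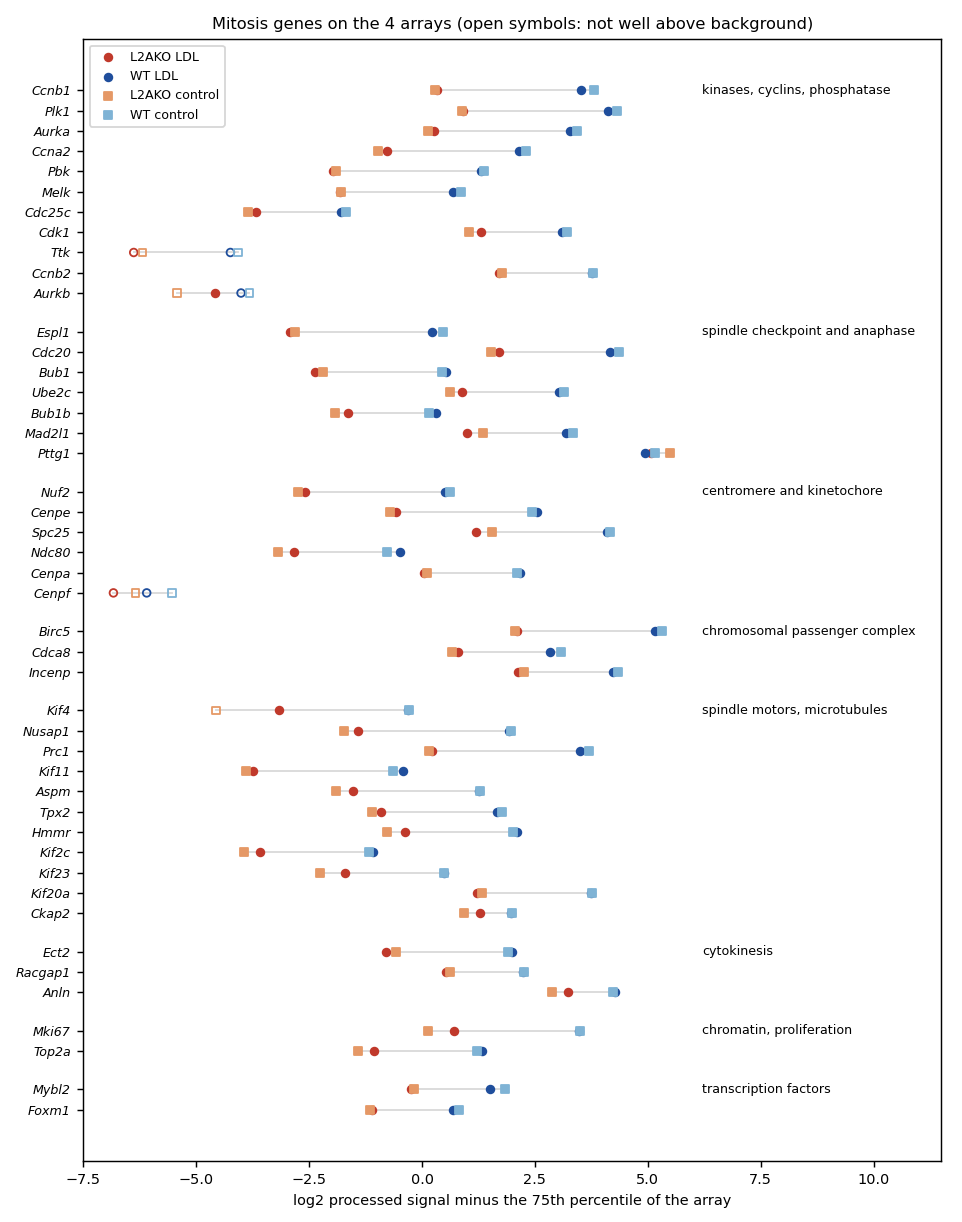
Log2 processed signal minus the 75th percentile of the array (x axis) for each of the 45 mitosis genes (rows, grouped by role), with 1 point per array: red circles L2AKO LDL, blue circles WT LDL, orange squares L2AKO control, light blue squares WT control, and open symbols for probes not well above background. In most rows both L2AKO points lie to the left of both WT points; Pttg1 is the exception among bright genes, and levels compare only within a row.

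The kinases and cyclins that start mitosis were lower in L2AKO for all 9 measured of 11, with a median difference of -3.26. Ccnb1, cyclin B1, stood at 0.29 in L2AKO control against 3.81 in WT control, and at 0.34 in L2AKO with LDL against 3.51 in WT with LDL. Both L2AKO values lay far below both WT values, with a difference of -3.52 without LDL. Its partner kinase Cdk1 stood at 1.05 in L2AKO control against 3.21 in WT control, and at 1.31 in L2AKO with LDL against 3.09 in WT with LDL, a smaller gap of 4.46-fold without LDL. Plk1, the polo-like kinase that matures centrosomes and triggers mitotic entry, stood at 0.89 in L2AKO control against 4.31 in WT control, and at 0.92 in L2AKO with LDL against 4.13 in WT with LDL. Ccnb2, cyclin B2, had the smallest difference of the group without LDL, at 1.76 in L2AKO control against 3.77 in WT control. With LDL it stood at 1.70 in L2AKO against 3.75 in WT, and the smallest difference there was that of Cdk1, at -1.78. For each of these genes the 2 L2AKO arrays lay within 0.26 of each other and the 2 WT arrays within 0.29. Aurka, the kinase of spindle poles, differed by -3.29 without LDL, Ccna2, cyclin A2, by -3.27 and Cdc25c, the phosphatase that activates Cdk1, by -2.18. The kinases Pbk and Melk differed by -3.26 and -2.66.

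The remaining 2 kinases gave little. Ttk, the checkpoint kinase Mps1, was above background on none of the arrays. Aurkb, the kinase of the chromosomal passenger complex, was well above background on the L2AKO LDL array alone, at -4.59 against -4.01 in WT with LDL, and read -5.43 in L2AKO control against -3.82 in WT control. The lowest value well above background was -5.08 on the L2AKO LDL array and between -4.40 and -4.23 on the other arrays, so no fold is given for Aurkb.

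Its partners in the passenger complex, which corrects wrong attachments of chromosomes to the spindle, were measured and lower. Birc5, survivin, stood at 2.05 in L2AKO control against 5.31 in WT control, and at 2.10 in L2AKO with LDL against 5.15 in WT with LDL. That is 9.56-fold lower without LDL, and its 2 other probes differed by -3.13 and -3.06. Incenp, the scaffold of the complex, stood at 2.26 in L2AKO control against 4.33 in WT control, and at 2.13 in L2AKO with LDL against 4.24 in WT with LDL. Cdca8, borealin, differed by -2.41 without LDL and by -2.05 with LDL.

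Among checkpoint and anaphase genes, 6 of 7 were at least 2-fold lower in L2AKO and 1 was not. Espl1, separase, the protease that cuts cohesin at anaphase, stood at -2.81 in L2AKO control against 0.46 in WT control, and at -2.92 in L2AKO with LDL against 0.22 in WT with LDL. Cdc20, which activates the anaphase-promoting complex, differed by -2.85 without LDL, and its ubiquitin-conjugating enzyme Ube2c by -2.53. The checkpoint genes Bub1, Bub1b and Mad2l1 differed by -2.62, -2.08 and -2.00.

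Pttg1, securin, which holds separase inactive, was the exception. It stood at 5.50 in L2AKO control against 5.16 in WT control, and at 5.06 in L2AKO with LDL against 4.94 in WT with LDL, so its values overlapped between genotypes across treatments. Its difference of 0.34 without LDL ranked 9444 from the lowest among 12593 genes. The second probe of Pttg1 read -2.23 in L2AKO control against -2.27 in WT control, a difference of 0.04. Securin and separase, which bind each other as proteins, thus differed by 0.34 and -3.27 between the same arrays. The Pttg1 window held neither a CHR nor a CCAAT match, which was also so for Nusap1 and Birc5, both lower in L2AKO.

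Centromere and kinetochore genes were at least 2-fold lower in L2AKO for 5 of 5 measured members, with a median of -2.63. Nuf2, a subunit of the NDC80 complex that grips microtubules, stood at -2.75 in L2AKO control against 0.61 in WT control, and at -2.60 in L2AKO with LDL against 0.50 in WT with LDL. Its complex partners Ndc80 and Spc25 differed by -2.43 and -2.63 without LDL, and Cenpe, the kinetochore motor, by -3.15. Cenpa, the centromeric histone, had the smallest difference, at 0.10 in L2AKO control against 2.10 in WT control, and at 0.04 in L2AKO with LDL against 2.16 in WT with LDL. Cenpf, a large kinetochore protein, was above background on none of the arrays.

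Spindle motors and microtubule proteins held the largest and the smallest of the lower values. Nusap1, which bundles spindle microtubules, stood at -1.73 in L2AKO control against 1.98 in WT control, and at -1.42 in L2AKO with LDL against 1.94 in WT with LDL. It was the lowest measured member in both genotype comparisons, 13.1-fold lower without LDL and 10.2-fold lower with LDL. Kif4, a chromosome-bound kinesin, was not well above background in L2AKO control and stood at -0.29 in WT control. Against the lowest value well above background in L2AKO control, -4.33, it was at least 16.5-fold lower, an approximate bound. With LDL it stood at -3.17 in L2AKO against -0.32 in WT. Kif11, the motor that pushes spindle poles apart, differed by -3.26, Tpx2, which builds microtubules around chromosomes, by -2.88, Aspm, of the spindle pole, by -3.19 and Hmmr by -2.79. The depolymerising kinesin Kif2c differed by -2.77. Ckap2, a microtubule-associated protein, was the member nearest to the 2-fold limit on the lower side, at 0.92 in L2AKO control against 1.98 in WT control. With LDL it stood at 1.27 in L2AKO against 1.97 in WT, a difference of -0.69, under 2-fold.

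Genes of cytokinesis were lower for 6 of 6 members. Prc1, which crosslinks the microtubules of the midzone, stood at 0.14 in L2AKO control against 3.70 in WT control, and at 0.21 in L2AKO with LDL against 3.50 in WT with LDL, 11.7-fold lower without LDL. Kif20a and Kif23, the midzone kinesins, differed by -2.44 and -2.76, Ect2, which activates RhoA at the furrow, by -2.49 and Racgap1, its partner, by -1.63. Anln, anillin, the scaffold of the contractile ring, stood at 2.87 in L2AKO control against 4.23 in WT control, and at 3.24 in L2AKO with LDL against 4.27 in WT with LDL, 2.57-fold lower without LDL. Together with Ckap2 and Racgap1, Anln had the smallest differences of the lower members.

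Mki67, which encodes the proliferation marker Ki-67, stood at 0.13 in L2AKO control against 3.49 in WT control, and at 0.71 in L2AKO with LDL against 3.47 in WT with LDL. The gap was 10.3-fold without LDL, and its second probe differed by -3.19. Top2a, the topoisomerase that untangles sister chromatids, stood at -1.43 in L2AKO control against 1.21 in WT control, and at -1.05 in L2AKO with LDL against 1.33 in WT with LDL. Both L2AKO values of each gene lay below both WT values.

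The transcription factors of the set were lower by less than most of the other members. Foxm1, which activates genes of late cycle, stood at -1.14 in L2AKO control against 0.82 in WT control, and at -1.10 in L2AKO with LDL against 0.69 in WT with LDL. Mybl2, B-MYB, stood at -0.18 in L2AKO control against 1.84 in WT control, and at -0.25 in L2AKO with LDL against 1.50 in WT with LDL. They were 3.89-fold and 4.05-fold lower without LDL, against 6.25-fold at the members' median. A second Mybl2 probe differed by -2.89, so the brightest probe gave the smaller difference.

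Between genotypes, other probes of the members mostly gave the direction of the brightest probe. Of 20 such probes, 13 were well above background on both control arrays, from 11 genes, and 12 of these 13 were at least 2-fold lower in L2AKO. The other was the second probe of Pttg1, at 0.04. The median gap to the gene's brightest probe was 0.20 log2 units and the largest 0.87. With LDL, 16 other probes were measured, 14 were at least 2-fold lower, and 15 had the sign of the brightest probe. The exception was again the second probe of Pttg1, at -0.26 against 0.12 on the brightest. The widest gap there, 1.17, was between probes of Cdk1, at -1.78 on the brightest and -0.61 on another. For LDL minus control, 14 of 17 other probes in WT had the sign of the brightest probe, but only 7 of 13 in L2AKO. For the difference of LDL responses it was 8 of 13.

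With LDL present the genotypes differed in the same direction. Of 42 measured members, 40 were at least 2-fold lower in L2AKO, against 10.4% of all 12934 genes, and none was at least 2-fold higher, against 8.3% of all genes. At 1.5-fold 41 were lower, against 20.5% of all genes, and none higher, against 16.9%. The median difference was -2.51, beside -0.05 for all genes, and the members below 2-fold were Ckap2 and Pttg1. The 200 lowest differences of all genes held 18 of the 42 members (42.9%). Across the 41 members well above background on all arrays, the genotype differences of the 2 treatments, which come from separate arrays, had a Pearson r of 0.95 and a Spearman rho of 0.91; this describes 4 arrays. For 39 of the 41 the 2 differences lay within 0.5 log2 units, and the widest gap, 0.61, was that of Mki67. For 30 of the 41 the difference was smaller in size with LDL, where the L2AKO array also lay on another slide. These counts and correlations were not computed over all genes, so they do not set the members apart.

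**Figure D2:**
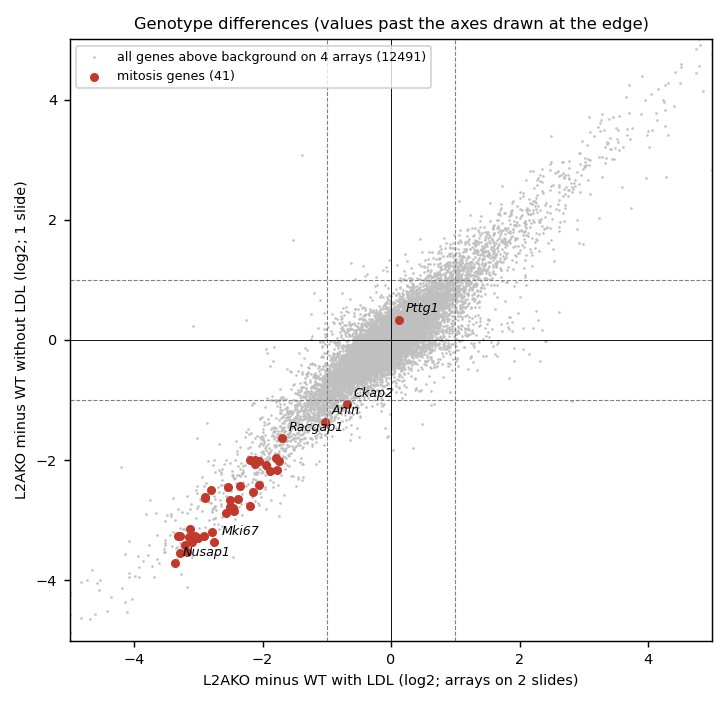
Each point is a gene well above background on all 4 arrays, with its log2 difference L2AKO minus WT with LDL (x axis) and without LDL (y axis); red points are the 41 mitosis genes, grey points all 12491 genes, and dashed lines mark 2-fold. The red points lie in the lower left, apart from Pttg1 near 0, and Ckap2 and Anln close to the 2-fold lines.

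By its brightest probe, no member differed by 2-fold between LDL and control cells of either genotype where both arrays measured it. Another probe of Cdk1, well above background on all arrays, was higher with LDL by 1.53 in L2AKO and by 0.32 in WT. The brightest Cdk1 probe differed by 0.26 in L2AKO and -0.12 in WT. In WT, on 1 slide, none of 42 measured members was at least 2-fold lower or higher with LDL, against 1.02% and 0.247% of all 12977 genes. None passed 1.5-fold either, against 2.46% of all genes lower and 1.25% higher. Their median difference was -0.07, beside -0.05 for all genes, and 27 of the 42 differed by less than 0.15, which is 2 SDs of a difference of 2 spots. Past this limit 12 members were lower and 3 higher, while 26.8% of all genes were lower and 15.1% higher, so LDL differences of this size were common among all genes. The extremes were Mybl2 at -0.33 and Ndc80 at 0.29. In L2AKO, across slides, again none of 41 was at least 2-fold lower or higher, against 1.33% and 0.93% of all 13008 genes. Their median was 0.13, beside -0.08 for all genes, and 18 of the 41 were higher by more than 0.15 while 5 were lower by as much. Over all genes the balance was the other way, with 19.8% higher and 38.2% lower past this limit. Of 13 other probes of members measured on both L2AKO arrays, only 7 had the sign of the brightest probe.

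At 1.5-fold, 1 member was called higher with LDL in L2AKO, against 3.34% of all genes, and none lower, against 4.55%. This was Mki67, which differed by 0.59 with LDL in L2AKO and by -0.02 in WT, but its second probe differed by 0.33 in L2AKO and 0.05 in WT. Kif23 followed with 0.57 in L2AKO and 0.00 in WT. The lowest in L2AKO were Pttg1 (-0.44), Mad2l1 (-0.35) and Spc25 (-0.34). Kif4, in L2AKO above background only with LDL, stood at least 2.23-fold higher there than in L2AKO control, a bound that compares the slides. Among the 41 members the difference of the LDL responses, L2AKO minus WT, had a median of 0.26, beside -0.03 for all genes. By the brightest probe none reached 2-fold, against 1.39% of all genes higher and 0.721% lower. The Cdk1 probe that was higher by 1.53 with LDL in L2AKO gave 1.21, against 0.38 on the brightest. At 1.5-fold, 1 member was higher, Mki67 again, against 4.77% of all genes, and none lower, against 3.99%.

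**Figure D3:**
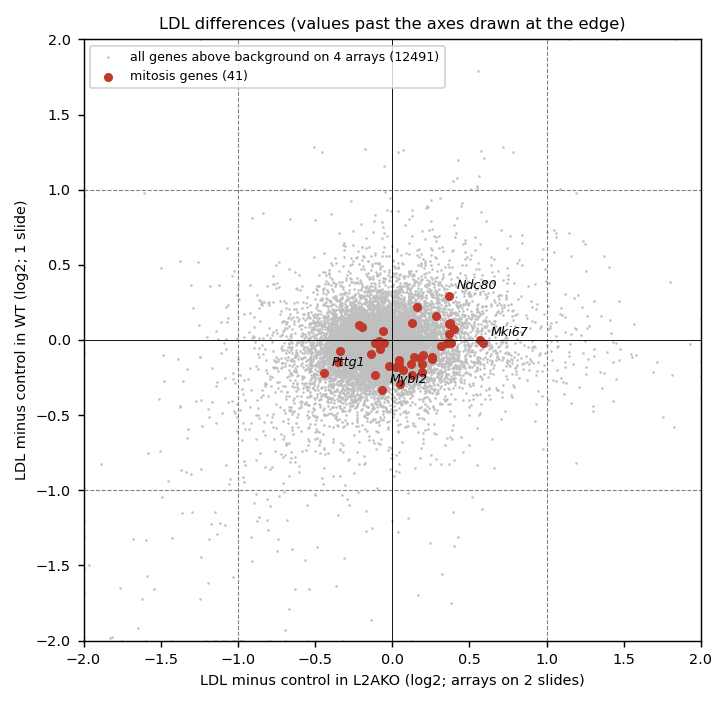
Each point is a gene well above background on all 4 arrays, with its log2 difference LDL minus control in L2AKO (x axis, arrays on 2 slides) and in WT (y axis, 1 slide); red points are the 41 mitosis genes, grey points all genes, and dashed lines mark 2-fold. The red points stay inside the dashed lines, between -0.44 and 0.59 in L2AKO and between -0.33 and 0.29 in WT.

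Other genes of chromosome segregation, chosen as a list of 90 outside the set, lay lower in L2AKO as well but less uniformly. Without LDL, 58 of 83 measured were at least 2-fold lower and none higher, with a median of -1.60. The largest differences among genes measured on both arrays were those of Iqgap3 (-4.56), Kif18b (-3.56), Sapcd2 (-3.48) and the centromere gene Cenpi (-3.45). Depdc1b, not above background in L2AKO control, read 4.46 log2 units lower there, which rests on that dim value. With LDL, 60 of 87 were at least 2-fold lower, with a median of -1.61. DNA replication genes, which act before mitosis, had 21 of 31 at least 2-fold lower without LDL and a median of -1.48, led by Mcm10 (-3.09), Tk1 (-3.07), Mcm5 (-2.92) and Cdc6 (-2.71).

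The anaphase-promoting complex and most of cohesin lay closer to 0. Of 14 measured subunits of the anaphase-promoting complex and its second activator Fzr1, none reached 2-fold between L2AKO and WT control cells, with a median of -0.03. The largest sizes were those of Anapc15 (-0.97), Anapc4 (-0.43), Cdc23 (0.40) and Anapc7 (0.38). Cohesin and its loaders had a median of 0.05 and none of 12 at 2-fold, with Nipbl at 0.72, Smc1a at -0.68 and Wapl at 0.56. The remaining gene of that list, Esco2, which acetylates cohesin in S phase, was not above background in L2AKO control and was at least 4.40-fold lower there, and differed by -2.46 with LDL. So Cdc20 and Ube2c, which work with the complex, differed by -2.85 and -2.53 while its measured core subunits differed by less than 1 log2 unit. The subunit Anapc10, not above background in L2AKO control, read 1.73-fold lower there, which rests on that dim value, and differed by -0.54 with LDL. Of 15 housekeeping genes 1 was at least 2-fold lower, the transferrin receptor gene Tfrc (-1.32), with a median of -0.07, and 3 were at least 1.5-fold lower, with Hprt at -0.89 and Ywhaz at -0.73. Actb differed by -0.15 and Gapdh by -0.07. With LDL, 2 of the 15 were at least 2-fold lower, Hprt (-1.36) and Tfrc (-1.25).

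**Figure D4:**
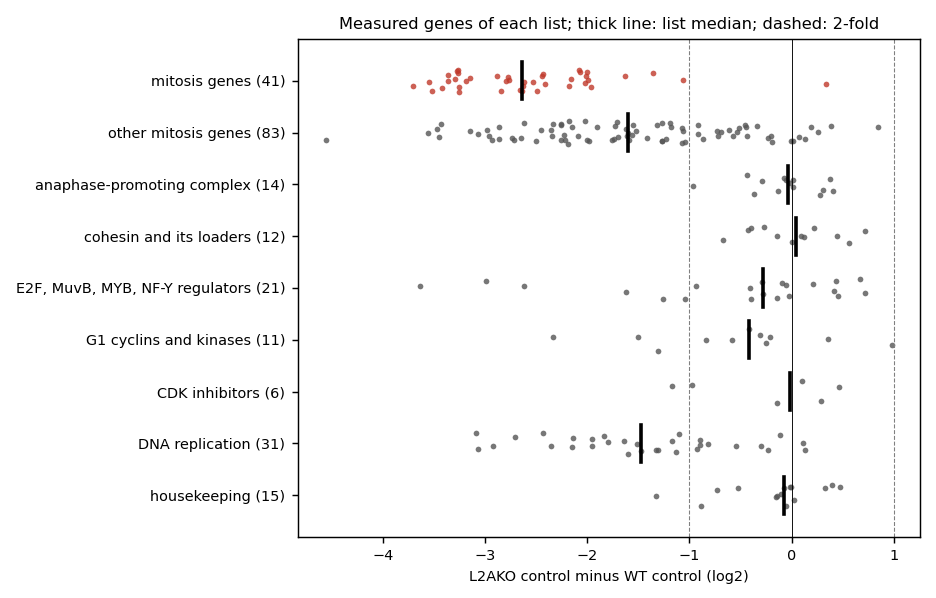
Log2 difference L2AKO control minus WT control (x axis) for each measured gene (points) of the 45 mitosis genes, in red, and of 8 other lists (rows, number measured in brackets); thick lines are list medians and dashed lines mark 2-fold. The mitosis genes have the lowest median, -2.64, ahead of other mitosis genes at -1.60 and DNA replication genes at -1.48, and the other 6 lists have medians between -0.42 and 0.05.

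The regulators of the set were split. Without LDL, 6 of 21 measured E2F, pocket protein, MuvB, MYB and NF-Y genes were at least 2-fold lower in L2AKO and none higher. These were E2f8 (-3.64), E2f7 (-2.99), E2f2 (-2.62), the MuvB subunit Lin9 (-1.62), the pocket protein gene Rbl1 (-1.26) and E2f1 (-1.05). The quiescence-associated E2f4 (0.46) and Rbl2 (0.42), Rb1 (-0.06) and the NF-Y subunits Nfya (0.44), Nfyb (-0.39) and Nfyc (-0.28) differed by less than 1.5-fold. The MuvB subunits Lin37 (-0.41), Lin52 (0.21) and Rbbp4 (-0.14) did so too, as did E2f3 (-0.09), Tfdp1 (-0.29) and Tfdp2 (-0.02). Lin54 stood at -0.94, E2f6 at 0.72 and E2f5 at 0.67. With LDL, E2f4 was higher in L2AKO by 1.12. Myb and Mybl1, not above background in L2AKO control, were at least 2.10-fold and 2.17-fold lower there.

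Upstream of mitosis, the G1 cyclin gene Ccnd1 stood at 4.50 in L2AKO control against 6.83 in WT control, a difference of -2.33. Ccne1, cyclin E1, stood at 0.70 in L2AKO control against 2.20 in WT control. Ccnh, of the CDK-activating kinase, differed by -1.31, while Mnat1, of the same kinase, differed by 0.98. The list's median was -0.42, with 3 of 11 measured genes at least 2-fold lower. Cdk6, not above background in L2AKO control, was at least 3.18-fold lower there.

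Of genes of CDK inhibitors, which halt the cycle, none of 6 measured without LDL was at least 1.5-fold higher in L2AKO, against 15.2% of all genes. With LDL it was none of 7, against 16.9%. With so few genes these counts do not set the inhibitors apart. Without LDL, Cdkn1a, p21, differed by -0.97, Cdkn2d by -1.17, Cdkn2c by -0.14, Cdkn2a by 0.10, Cdkn1b, p27, by 0.29 and Cdkn2b by 0.46. Cdkn1c, p57, stood at 1.38 in WT control and read -4.26 in L2AKO control, not well above background. The 49.9-fold lower level rests on that dim value and is approximate. With LDL Cdkn1c stood at -3.45 in L2AKO against 1.36 in WT.

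The smooth muscle label and other cell types were looked at through marker lists. Of 12 smooth muscle markers 6 were measured in both genotypes, Acta2, Tagln, Cnn1 and Smtn among them, whereas the mature smooth muscle markers Myh11, Myocd, Lmod1 and Des were so on none. The list was mixed. Tagln (1.27), Cnn1 (1.11), Cald1 (0.45) and Tpm2 (0.28) were higher in L2AKO without LDL, and Acta2 (-0.75) and Smtn (-0.995) were lower. Itga8 was well above background on both WT arrays and on neither L2AKO array, and Mylk in WT control alone. The summed signal of the 12 smooth muscle markers, in units of the 75th percentile of the array, was 184 in L2AKO control against 233 in WT control, and 174 in L2AKO with LDL against 207 in WT with LDL. The 8 mesothelial and epithelial markers moved in the direction of the mitosis genes, with summed signals of 18.3 in L2AKO control against 63.7 in WT control and 21.1 in L2AKO with LDL against 59.0 in WT with LDL. Of their 6 measured members 4 were at least 2-fold lower without LDL, Cdh1 by -3.14, Msln by -2.31, Krt18 by -1.90 and Krt19 by -1.62, and Upk3b was higher by 1.17. The 10 fibroblast markers summed to 500 in L2AKO control against 517 in WT control, and 504 in L2AKO with LDL against 443 in WT with LDL. These sums hide large differences in opposite directions. Without LDL, 4 of 9 measured were at least 2-fold higher in L2AKO, Col3a1 (6.15), Serpinf1 (4.28), Pi16 (4.14) and Clec3b (2.23). The 2 that were at least 2-fold lower were Dcn (-1.69) and Lum (-1.03). The 8 macrophage markers summed to 30.3 in L2AKO control and 48.1 in L2AKO with LDL, against 30.8 in WT control and 27.1 in WT with LDL. Itgam made up most of each sum. With LDL in L2AKO, across slides, Itgam differed by 0.80, whereas Csf1r differed by -0.34 and Cd68 by -0.25. The 8 endothelial markers summed to 11.2 in L2AKO control and 11.3 in L2AKO with LDL, against 9.19 in WT control and 7.01 in WT with LDL. In each of these 2 lists 4 of 8 markers were above background on none of the arrays, Ptprc and Adgre1 of macrophages and Cdh5 and Tie1 of endothelium among them. Others were above background on all 4 arrays. Of these, Cd68 differed by 1.85 between L2AKO and WT without LDL, Csf1r by 0.52 and Itgam by -0.16. The endothelial markers Egfl7, Vwf and Kdr differed by 0.96, 0.24 and -0.38. The part of cell composition in the difference of mitosis genes was not tested.

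Members with a CHR match in the window had a median difference of -2.63 between the genotypes without LDL (25 measured), and members with a window but no match had -3.15 (9 measured, Pttg1 among them). These medians describe 34 members and were not tested.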

How the data were processed

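Messenger RNA was measured on 4 Agilent arrays, 1 per group. Per the file headers, Feature Extraction 10.7.3.1 made the deposited scanner files, which hold background-subtracted spot intensity on a linear scale. A table of processed values from the authors is linear intensity too; the submitters' processing notes name oligo and RMA, with settings not given in the sources used here. Control spots and outlier spots were left out and spots of a probe averaged as log2 values, which left 55679 probes; 28330 matched 1 gene through their RefSeq accession and 27349 stayed unnamed. Each array's 75th percentile was subtracted. A gene was its brightest probe by mean, counted as measured where both arrays of a comparison had it well above background. Differences are on the log2 scale; at least 2-fold is a call, set beside the percentage of all genes called. A gene not above background on 1 array has a bound, against the higher of its own value there and the lowest value well above background. For Cdkn1c, Depdc1b and Anapc10 in L2AKO control the own value was higher, so the plain difference from a dim value is given. Depdc1b read -4.10 there without being well above background, so the lowest value is not a detection limit for every probe. The bounds are therefore approximate. The members, the lists and the rule for naming genes were chosen with earlier results of these data known. That rule took the extremes of each role group by genotype difference without LDL, 8 fixed genes, bounded members and up to 4 genes of each other list by size. It allowed any measured regulator, CDK inhibitor or housekeeping gene, of which some housekeeping genes are not named. Bounded genes of the other lists and further cell type markers were named after their values were seen. The remaining members are given by difference. The lymphocyte marker list is not reported here. The differencing step was tested on simulated data. The arrays' number limits the precision. The array design is of build mm9, so no coordinates come from it; promoter sequences are RefSeq's, of GRCm38.p6. Tools were Python 3.11.15 with pandas 2.3.3, numpy 2.4.6, matplotlib 3.10.9 and scipy 1.17.1, and R 4.3.3 with limma 3.58.1.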

Additional observations from a re-analysis of the deposited data

Results flagged for a closer look

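For 2 of the 41 members the LDL differences had opposite directions in the genotypes, each larger than 2 SDs of a difference of 2 spots. Past this limit 26.8% of all genes were lower and 15.1% higher with LDL in WT, and 38.2% lower and 19.8% higher in L2AKO. The share of all genes with opposite directions was not computed, so the 2 members are not set apart from other genes. Ccna2 differed with LDL by 0.19 in L2AKO and by -0.16 in WT. Cdc20 differed with LDL by 0.19 in L2AKO and by -0.21 in WT. With no scaling, LDL differences in WT rose by 0.22, more than the size of either WT value. The directions were then no longer opposite for either member. The L2AKO values compare slides, and the difference between the genotypes was not tested, since each group had 1 array.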

How the results depend on the processing

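No paired analysis was possible because each group had 1 array, and for the same reason no array could be left out. Under 8 alternatives, between 39 and 43 members had L2AKO levels at least 2-fold lower without LDL and between 38 and 41 with LDL, none was at least 2-fold higher, and no member that was at least 2-fold lower reversed. The median without LDL was -2.55 with median scaling, -2.35 with no scaling, -2.22 after normexp and quantile normalisation and -2.26 in the authors' deposited values; with LDL it was -2.31, -2.28, -2.04 and -2.18 in the same order. The median LDL difference in L2AKO was 0.23 with median scaling, 0.22 with the percentile taken over probes that every array detected and 0.28 with no scaling, and that in WT was 0.15 with no scaling, where all genes had a median of 0.17. The median difference of LDL responses was 0.36 with median scaling, 0.13 after normexp and quantile normalisation and 0.16 in the authors' deposited values. Median scaling moved the median of all genes by 0.20 between genotypes with LDL and by 0.11 for LDL in L2AKO. With no filter on dim probes, 1 member in L2AKO was higher with LDL by at least 2-fold and 2 in the difference of responses; at 1.5-fold, 1 was higher with LDL in L2AKO. The cause of these shifts was not tested. Dim members (Ttk, Cenpf, Aurkb) are limited by signal over background.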

Other observations

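Some genes of the second mitosis list did not follow the rest, and are named here after their values were seen. Of its 83 measured genes, 17 differed by less than 1.5-fold between L2AKO and WT without LDL, and 7 lay above 0. Zwint, of the outer kinetochore, stood at 5.81 in L2AKO control against 5.42 in WT control, and at 5.50 in L2AKO with LDL against 5.37 in WT with LDL. Smc4, of condensin, stood at 3.59 in L2AKO control against 3.58 in WT control, and at 3.50 in L2AKO with LDL against 3.78 in WT with LDL. Cenpo, of the inner kinetochore, was higher in L2AKO, by 0.85 without LDL and by 0.80 with LDL.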
